A study of Mus musculus with 12 samples.

Results

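The response of wild-type mouse liver to PPT was read from 4 of the 12 arrays of the series, the 2 titled Wildtype experimental (PPT) and the 2 titled Wildtype control (oil). Every probe set that passed the 40th percentile of the array it was read on, in 2 or more of the 12, was taken, which kept 19119 of 28815 probe sets, and 13987 genes when a gene was represented by its brightest probe set with a single gene symbol. No measured difference entered this choice. The probe sets just outside the limit were 3010003L21Rik, 4931408C20Rik and 4930483J18Rik, whose second-highest value was 0.999, 0.9992 and 1.0 times the 40th percentile after rounding, and just inside were Dnah10, Ptafr and H3c15 at 1.0003, 1.0005 and 1.0008 times.

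The mice were C57BL/6 females 3 months of age whose ovaries had been removed, left 1 week to recover, and then injected intraperitoneally on each of 3 days with 100 µg of PPT or with 0.1 mL of oil. Wild-type mice carried the normal receptor gene. For comparison, the labels give ERKO mice as lacking oestrogen receptor alpha and MOER mice as having this receptor at the membrane only, each also given oil or PPT on 2 arrays a group, and how either line was made is not described in the labels. Each array held total RNA of whole, snap-frozen liver pooled from 3 animals. The labels speak of a repeat of the study but tie no array to particular animals, so the p-values measure the spread between arrays, which may be technical. The values are linear hybridisation intensities on the Affymetrix Mouse Gene 1.0 ST array, in arbitrary units.

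PPT is a synthetic agonist that binds oestrogen receptor alpha in preference to the beta form. The receptor is a ligand-activated transcription factor that binds DNA in the nucleus, and a smaller pool at the cell membrane signals through kinases. Liver expresses mainly the alpha form, and hepatocytes, its main cell type, make most plasma proteins, bile acids and lipoproteins and clear drugs, hormones and amino nitrogen. Removing the ovaries takes away the main source of circulating oestrogen, so the oil group stands for a low-oestrogen state.

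The paired arrays of a group correlated at 0.994 to 0.996 across probe sets, except in ERKO oil at 0.981, where 162 probe sets were over 2-fold apart on the paired arrays, against 21 in wild-type oil and 9 in wild-type PPT. Array medians lay between 77.5 and 85.26. Esr1, the gene of oestrogen receptor alpha, read 347 and 365 under oil and 309 and 325 after PPT in wild type, a log2 change of -0.16 ± 0.093 that was not called (adjusted p = 0.229, limma with Benjamini-Hochberg adjustment). Under oil it read 126 and 118 in ERKO and 126 and 128 in MOER, and whether its probes lie in a deleted part of the gene is not described in the labels. The arrays were those of hepatocyte-rich tissue: albumin (Alb), the most abundant plasma protein, read 20424 and 20176 under oil and 20724 and 19515 after PPT. The summed intensity of 13 hepatocyte markers was 136000 and 139000 under oil and 111000 and 104000 after PPT.

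Change is given throughout as the difference between PPT and oil in log2(intensity + 16), with its standard error, from 1 limma fit over all 12 arrays. A gene is said to have risen or fallen only where its p-value, adjusted by Benjamini-Hochberg over the 19119 probe sets, was under 0.05. In wild-type liver 5921 probe sets were called, 31.0% of those tested, with 2827 higher (14.8%) and 3094 lower (16.2%), and 498 (2.6%) and 630 (3.3%) of these changed by at least 2-fold. Among genes, 4631 of 13987 were called (33.1%), 2132 up (15.2%) and 2499 down (17.9%), and those are the shares against which the gene groups below are to be read. The median log2 change over all genes was 0.0048 and the median size of a called change was 0.595. Changes of at least 8-fold were seen for 34 genes that rose and 18 that fell.

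**Figure D1:**
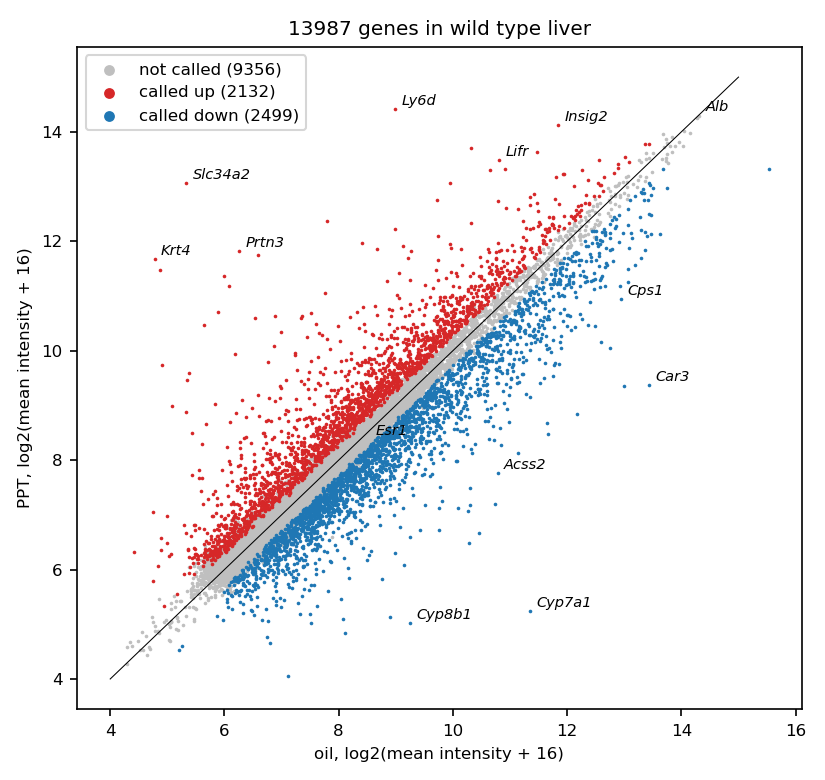
Each point is 1 of 13987 genes, placed by its log2 of mean intensity plus 16 under oil (horizontal) and after PPT (vertical) in wild-type liver, n = 2 arrays each, on the same scale on both axes. Red points are the 2132 genes called higher, blue the 2499 called lower and grey the 9356 not called. Slc34a2 and Krt4 stand at the top left, Cyp7a1 and Cyp8b1 at the bottom right, and Alb lies on the diagonal.

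Among the brightest transcripts falls outnumbered rises. Of the 100 genes with the highest intensity under oil, 43 fell, 7 rose and 50 were not called, and all 17 that moved by 2-fold or more fell. A choice by the oil level favours falls. With the 100 chosen by the mean of all 12 arrays, an alternative added after the data were seen, 37 fell and 10 rose, 12 and 1 of them by 2-fold or more. Sult2a3, a sulfotransferase of bile acids and steroids, read 51281 and 43095 under oil and 11330.3 and 8975 after PPT, a change of -2.22 ± 0.17. Both PPT arrays of Sult2a3 lay far under both oil arrays. The 7 that rose did so by less than 2-fold. They were Arg1 (0.53), the last enzyme of the urea cycle, Crp (0.52), Tat (0.45), the cytosolic chaperone Hspa8 (0.43), the ferritin chain Fth1 (0.41), the uptake carrier Slco1b2 (0.35) and urate oxidase Uox (0.34). Leaving out single wild-type arrays ended the calls of Tat, Fth1, Slco1b2 and Uox.

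The endoplasmic reticulum (ER) is where a hepatocyte makes the proteins it secretes: ribosomes dock at a channel in its membrane, chaperones fold the chain, sugars are attached, and coated vesicles carry it to the Golgi. Chaperones of the ER rose almost as a block. Of 26 tested members 25 rose and 0 fell, with a median log2 change of 1.00, beside 0.0048 over all genes. Hspa5 (BiP), the main Hsp70 of the ER lumen, read 3965 and 3892 under oil and 9712 and 9527 after PPT, a change of 1.29 ± 0.085 (limma, adjusted p = 1.11e-06). Creld2, an ER protein disulphide isomerase, read 304 and 304 under oil and 1622 and 1683 after PPT (2.38 ± 0.12), and Manf, a secreted ER-stress factor, read 1019.9 and 934 under oil and 3944 and 3964 after PPT (2.001 ± 0.090). In each of these 3 genes both PPT arrays stood far above both oil arrays. Sdf2l1 (2.18), the co-chaperones Dnajb9 (1.91) and Hspa13 (1.77), the nucleotide exchange factor Hyou1 (1.33) and the disulphide isomerase Pdia6 (1.32) also rose, and the prolyl isomerase Fkbp2 was the member not called (0.17). The change differed from that in ERKO for 22 of the 26 genes and from that in MOER for 21. Over all genes these shares were 23.7% and 23.9%. Among all 2132 genes that rose, the change was higher than in ERKO for 1293 and than in MOER for 1403.

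Many ER chaperone genes are known to carry an ER stress element, CCAAT and CCACG set 9 bases apart (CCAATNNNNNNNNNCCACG), which is bound by NF-Y together with ATF6. The element was searched on both strands in the RefSeq windows of GRCm38.p6 that run from 250 bases before to 50 after each start site. Of the 26 chaperone genes 22 had a window, and 8 of these (36.4%; 27.6% of their 29 windows) held it, against 17 of 11084 tested genes (0.153%; 0.122% of 13949 windows of the same length). All 8 rose in wild-type liver: Hspa5, Hsp90b1 (0.93), Calr (0.76), Canx (0.38), Pdia6, Dnajc3 (1.07), Ero1b (1.12) and Creld2. They are shown because they share letters as well as a direction of change. Each line reads 5′ to 3′ along the gene's own strand, with the element in capitals, inverted where the capitals start with CGTGG.
Hspa5, chr2:34772000-34772068, plus strand: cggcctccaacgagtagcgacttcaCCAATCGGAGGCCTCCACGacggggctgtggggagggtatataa
Hsp90b1, chr10:86705613-86705681, minus strand: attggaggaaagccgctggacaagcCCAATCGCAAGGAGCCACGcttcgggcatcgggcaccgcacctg
Calr, chr8:84847050-84847118, minus strand: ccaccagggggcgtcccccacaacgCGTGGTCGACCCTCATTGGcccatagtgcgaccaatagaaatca
Canx, chr11:50325775-50325843, minus strand: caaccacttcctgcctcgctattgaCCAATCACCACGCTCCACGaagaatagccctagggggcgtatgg
Pdia6, chr12:17266466-17266534, plus strand: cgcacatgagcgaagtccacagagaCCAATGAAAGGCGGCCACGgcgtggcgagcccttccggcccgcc
Dnajc3, chr14:118937802-118937870, plus strand: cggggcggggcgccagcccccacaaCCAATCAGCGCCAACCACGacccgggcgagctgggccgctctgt
Ero1b, chr13:12565657-12565725, plus strand: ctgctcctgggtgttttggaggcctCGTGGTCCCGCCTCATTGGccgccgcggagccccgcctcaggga
Creld2, chr15:88819495-88819563, plus strand: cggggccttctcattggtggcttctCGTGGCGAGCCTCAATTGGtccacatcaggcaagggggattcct
Hsp90b1 held a further copy downstream in its window, not shown. Sdf2l1, which rose by more than 7 of these 8 genes, held no exact copy in its window. Among genes that rose at least 2-fold 7 of 332 with a window held the element (2.11%), against 1 of 395 that fell as far (0.253%). These 7 include Hspa5, Pdia6, Dnajc3, Ero1b and Creld2 from above, and the 17 tested genes with the element include all 8 chaperone genes. As 25 of the 26 chaperone genes rose, the rise of all 8 does not set them apart.

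The machinery before and after folding rose as well. Of 35 tested genes for docking, translocation and N-glycosylation 32 rose and 0 fell, with a median change of 0.77. Gmppb, which makes the GDP-mannose used for glycan chains, read 91.0 and 87.2 under oil and 324 and 335 after PPT (1.72 ± 0.14). The translocon-associated proteins Ssr2 (1.24), Ssr3 (1.23) and Ssr1 (1.03), the oligosaccharyltransferase subunits Rpn1 (1.21), Ostc (1.17) and Stt3a (1.05), and the signal peptidase subunit Spcs3 (1.01) rose by 2-fold or more. Of 34 genes of the COPII and COPI coats and Golgi transport 23 rose and 0 fell (median 0.59). Sec23b, a COPII coat subunit, read 441 and 449 under oil and 1179 and 1178 after PPT (1.37 ± 0.085), while it fell in ERKO (-0.79) and MOER (-0.38). Cargo receptors Tmed3 (1.39) and Tmed9 (1.34), the coat subunit Sec13 (1.07) and the fusion factor Sec22b (1.16) rose, and the KDEL receptor Kdelr1 was not called (-0.03).

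Among 22 sensors of ER stress and genes of ER-associated degradation 15 rose and 0 fell (median 0.60). In the degradation arm Derl3 read 100.97 and 101.3 under oil and 349.9 and 308 after PPT (1.55 ± 0.12), Syvn1, a ubiquitin ligase, rose by 1.36 and Herpud1 by 1.18. Of the sensors, Ern1 (IRE1 alpha) read 179.7 and 146 under oil and 416 and 432 after PPT (1.30 ± 0.13). Xbp1, the transcript that IRE1 splices, moved little (0.26 ± 0.086), and its call was lost when any wild-type array was left out and in several other settings. The pro-apoptotic target Ddit3 (CHOP) was not called (0.05 ± 0.16). The proteasome, which degrades what the ER exports, stood nearer the 15.2% of all genes that rose: 7 of 30 subunits rose and 0 fell (median 0.17), and 3 rose whichever wild-type array was left out.

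Genes that build ribosomes rose together. Of 26 tested members 23 rose and 0 fell, with a median of 0.70. Myc, the transcription factor that drives ribosome production, read 44.3 and 59.4 under oil and 226 and 247 after PPT (1.90 ± 0.13, adjusted p = 1.19e-06 in limma). The box C/D snoRNP proteins Nop58 and Nop56, which guide methylation of ribosomal RNA, rose by 1.72 and 1.60. Polyamine synthesis moved the same way, with spermidine synthase Srm up by 1.67 and ornithine decarboxylase Odc1 by 1.09; Odc1 fell in MOER (-0.66). The change differed from that in ERKO for 21 and from that in MOER for 22 of the 26, against 23.7% and 23.9% of all genes. Among all 2132 genes that rose in wild type, it was higher than in ERKO for 1293 and than in MOER for 1403.

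Called genes of the lists for DNA replication and for mitosis all rose. Of 24 replication genes 17 rose and 0 fell (median 0.54). Uhrf1, which carries DNA methylation through replication, lay under the 40th percentile in both oil arrays and read 30.2 and 24.0 under oil and 364 and 322 after PPT, at least 6.35-fold higher after PPT. Mcm6, a subunit of the replicative helicase, read 90.5 and 82.2 under oil and 345 and 347 after PPT (1.82 ± 0.19), and Mcm5 (1.498), Mcm3 (1.33), Mcm4 (1.09), Mcm2 (0.90) and the sliding clamp Pcna (0.80) also rose. Of 33 listed mitosis genes and cyclins 20 were tested, of which 8 rose and 0 fell (median 0.32). Mki67, Ccnb1 and Foxm1 were among those not tested. Cdk1, the mitotic kinase, read 120.2 and 100.9 under oil and 366 and 346 after PPT (1.56 ± 0.22), and Ccna2 (1.22), Top2a (1.24) and Ccnd1 (1.01) rose. The mitotic kinases Aurka (0.23) and Aurkb (0.32) and the regulator Cdc20 (-0.04) were not called. Mad2l1, a spindle checkpoint protein outside these lists, read 220.5 and 190.2 under oil and 5469.9 and 5148 after PPT (4.59 ± 0.13). Pttg1, a mitosis gene also outside these lists, fell (-0.69).

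Several transcripts near the detection limit under oil became bright. For such genes, with both arrays of a group under their own 40th percentile (53.58 to 60.98), the fitted change depends on the added 16, so the fold over that percentile is given as a lower bound; 187 genes went up in this way and 187 went down. Slc34a2, a sodium-phosphate cotransporter best known from lung and gut, read 22.8 and 25.9 under oil and 8669 and 8332 after PPT, at least 158-fold higher (limma, adjusted p = 3.76e-10). It was not called in ERKO or MOER (0.17 and -0.06). Krt4, a keratin of stratified epithelia, read 18.7 and 4.22 under oil and 3308 and 3210.1 after PPT, at least 60.5-fold higher, and it also rose in ERKO (3.60). Dntt, the template-free DNA polymerase of developing lymphocytes, read 41.8 and 54.0 under oil and 2599 and 2617 after PPT, at least 48.4-fold higher. In Slc34a2, Krt4 and Dntt alike, the PPT arrays agreed closely and were far above any oil array.

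Other large rises had readable levels under oil. Ly6d, a surface antigen known from keratinocytes and lymphocytes, read 523 and 458 under oil and 21658 and 21989.8 after PPT (5.43 ± 0.16). Akr1c18, which inactivates progesterone, read 82.6 and 76.96 under oil and 3629 and 3236 after PPT (5.17 ± 0.13). Psen2, a catalytic subunit of gamma-secretase, read 1325 and 1202 under oil and 13747 and 12943 after PPT (3.39 ± 0.11). Ptgds, a prostaglandin D synthase, read 104 and 102 under oil and 1590.5 and 1575 after PPT (3.75 ± 0.10), and the crosslinking enzyme Tgm2 read 495 and 490.4 under oil and 4912 and 4658 after PPT (3.24 ± 0.11). Of the 25 genes with the largest rises, 10 were under the 40th percentile in both oil arrays. In ERKO 19 of these 25 genes were not called, 5 rose and 1 fell. In MOER 21 were not called, 3 rose and 1 fell. Over all genes 16.9% were called in ERKO and 4.92% in MOER. Of the 25 genes with the largest falls, 17 also fell in ERKO, 4 rose and 4 were not called. In MOER 17 of them fell, 1 rose and 7 were not called. Among all genes 9.48% fell in ERKO and 2.4% in MOER.

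**Figure D2:**
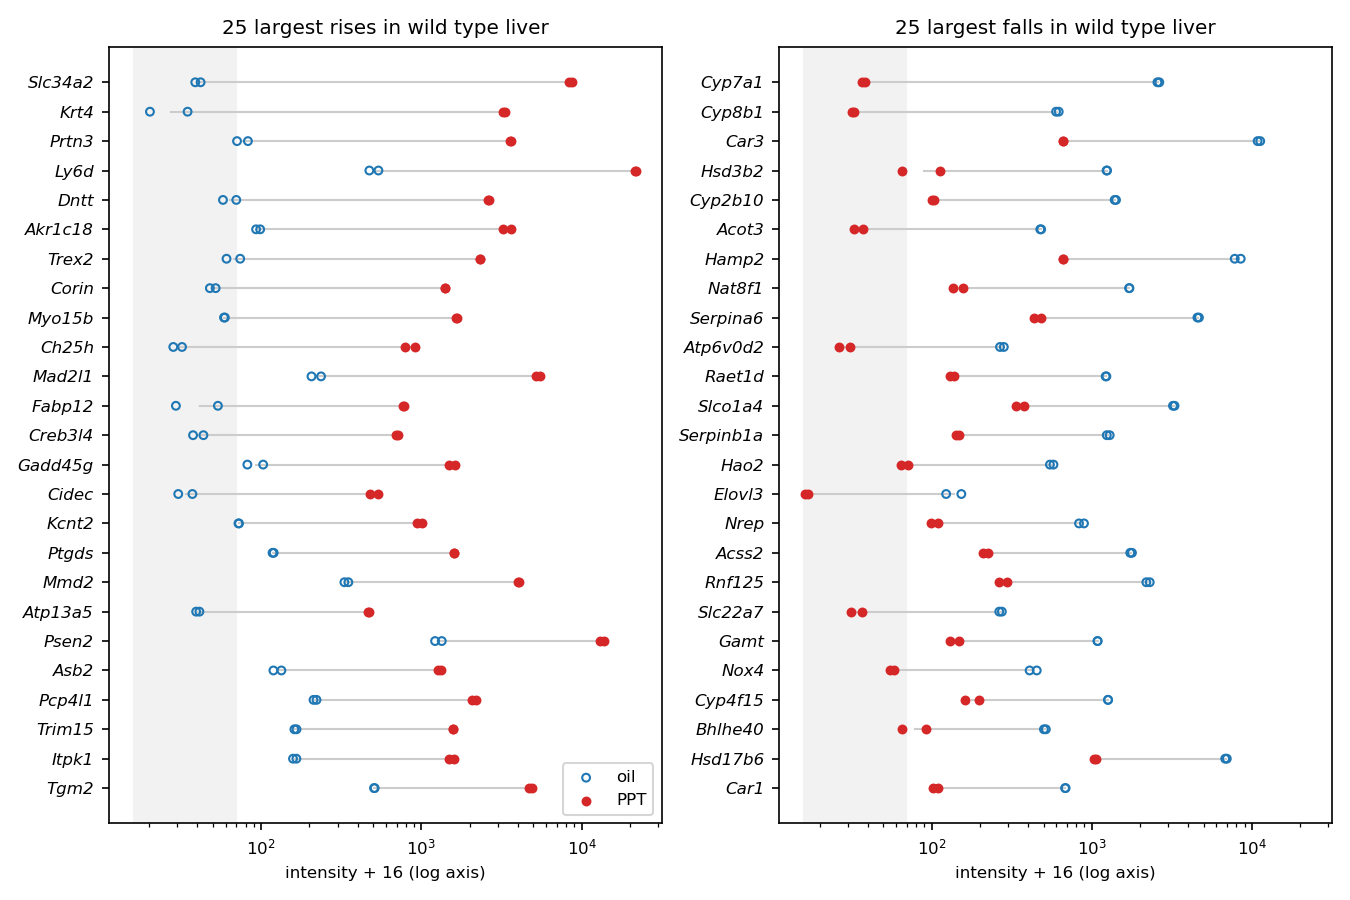
Intensity plus 16, on a log axis, of the 25 genes with the largest rises and the 25 with the largest falls in wild-type liver. Open blue points are the 2 oil arrays and filled red points the 2 PPT arrays, and the grey band marks intensities under 53.58, the lowest 40th percentile of the arrays. Oil and PPT points of every gene shown are separated by far more than the distance between points of 1 colour. The genes were picked as the called ones with the largest changes, so a wide separation follows from the choice.

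Among the deepest falls were enzymes of bile acid synthesis. Cyp7a1, which sets the pace of the classical pathway, read 2623 and 2554 under oil and 20.8 and 22.6 after PPT, at least 46.3-fold lower after PPT, and it fell further than in ERKO (-1.10) or MOER (-1.20), with adjusted p of 6.16e-09 and 5.25e-09 for the differences in limma. Cyp8b1, which makes the 12-alpha-hydroxylated bile acids, read 582 and 606 under oil and 15.99 and 16.8 after PPT, at least 10.6-fold lower. Cyp7b1, the oxysterol hydroxylase of the alternative pathway, moved the other way, 412 and 367 under oil and 3681 and 3689 after PPT (3.19 ± 0.098). Over the 15 genes of bile acid synthesis and conjugation 10 fell and 3 rose (median -0.47), the others that rose being Acox2 (0.80) and Cyp27a1 (0.33). Cyp27a1 lost its call whichever wild-type array was left out. The gene of the small heterodimer partner, Nr0b2, a repressor of bile acid synthesis, read 599 and 595 under oil and 1298 and 1339 after PPT (1.12 ± 0.15). In MOER Nr0b2 fell (-1.45). Nr1h4 (FXR), the bile acid receptor, read 1713 and 1726 under oil and 894 and 856 after PPT in wild type (-0.96 ± 0.085).

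Most enzymes listed for oxidative drug metabolism, mainly cytochromes P450, fell. Of 38 tested members 29 fell and 0 rose, with a median of -1.17, and their summed intensity went from 143000 and 145000 under oil to 78400 and 72700. Cyp2b10, the classic target of the receptor CAR, read 1401 and 1373 under oil and 87.4 and 84.3 after PPT (-3.78 ± 0.092). Cyp2e1, the ethanol-inducible P450, read 12584 and 12659.7 under oil and 4476 and 4417 after PPT (-1.502 ± 0.12), and Cyp1a2 read 2467 and 2497 under oil and 581 and 574 after PPT (-2.07 ± 0.091). Aldehyde oxidase Aox3 (-2.36), Cyp4f15 (-2.82), Cyp2c23 (-2.12) and the flavin monooxygenase Fmo2 (-1.89) fell as well. P450 enzymes of steroids in other lists, Cyp7b1 (3.19) and Cyp17a1 (2.66), rose. Not called were Cyp2j5 (-0.08), Cyp2a12 (0.02) and epoxide hydrolase Ephx1 (0.00). The Cyp2b, Cyp2c, Cyp3a, Gstm, Akr1c, Saa and hepcidin genes have near-identical relatives, and their probe sets may share signal.

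Conjugating enzymes fell too, with exceptions among the redox enzymes. Of 40 tested genes 28 fell and 5 rose (median -0.64). Gstm1, a glutathione transferase, read 3873 and 4229 under oil and 1426 and 1343 after PPT (-1.54 ± 0.093), Gsta4 fell by 1.66 on the log2 scale, and the sulfotransferases Sult1a1 (-1.73) and Sult1c2 (-2.26) and the glycosyltransferase Ugt3a1 (-1.53) fell. Those that rose included sulfiredoxin Srxn1 (1.06), glutathione reductase Gsr (0.64), thioredoxin reductase Txnrd1 (0.49) and Gstp1 (0.61). Heme oxygenase Hmox1 was not called (0.32).

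Enzymes that break down amino acids fell in 22 of 30 cases and rose in 3 (median -0.94), or in 1 without oil replicate 1 or PPT replicate 1. Prodh, which opens proline breakdown, read 1339 and 1212 under oil and 259 and 272 after PPT (-2.19 ± 0.11). Cth, which makes cysteine from cystathionine, read 8436 and 8758 under oil and 2372 and 2466 after PPT (-1.82 ± 0.10), and Mat1a, the methionine adenosyltransferase of adult liver, read 10421 and 10597 under oil and 3589 and 3704 after PPT (-1.52 ± 0.10). Gldc of glycine cleavage (-1.74), Gnmt (-1.58), Hal (-1.41) and Aldh4a1 (-1.64) fell, and tyrosine aminotransferase Tat (0.45) and Bhmt2 (0.62) rose, though Tat lost its call without either of those arrays. In nitrogen disposal 9 of 14 genes fell and 1 rose (median -0.78). Cps1, the first step of the urea cycle, read 7639 and 8060.1 under oil and 1936 and 1987 after PPT (-1.99 ± 0.091), and glutamine synthetase Glul read 4493 and 4523 under oil and 1408 and 1336 after PPT (-1.71 ± 0.12). Arg1 at the cycle's other end read 7949 and 8628 under oil and 12195 and 11709 after PPT (0.53 ± 0.098), so enzymes of the same cycle moved in opposite directions. In MOER Cps1 was not called (0.02) and in ERKO it fell by less than in wild type (-0.57, adjusted p = 2.39e-05 for the difference in limma).

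Cholesterol synthesis fell at nearly every step. All 11 genes from squalene to cholesterol fell (median -1.13), among them Nsdhl, which read 1296 and 1359.99 under oil and 295 and 304 after PPT (-2.09 ± 0.082), as did 5 of 7 from acetoacetyl-CoA to farnesyl diphosphate (median -1.15). Hmgcs1, whose enzyme opens the route, was not called (0.18 ± 0.087). Insig1 and Insig2, paired ER proteins that hold back SREBP processing, moved apart: Insig1 fell by 1.68 on the log2 scale and Insig2 read 3558 and 3777 under oil and 18266 and 17203 after PPT (2.27 ± 0.085). The sterol regulatory element core, TCACNCCAC on either strand, was held by the window of 1 of 15 genes of these steps (6.67%), against 1.43% of tested genes. That gene was Hmgcs1, 1 of the 2 genes of these steps that were not called. Its stretch is shown as the only match among them.
Hmgcs1, chr13:119690189-119690247, plus strand, core in capitals: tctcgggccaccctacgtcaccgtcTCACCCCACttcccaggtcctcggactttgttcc

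Fatty acid genes fell in synthesis and in oxidation. Of 17 synthesis genes 15 fell and 1 rose (median -0.95): Acss2, which activates acetate, read 1723 and 1765 under oil and 192 and 209 after PPT (-3.02 ± 0.086), and Thrsp, a lipogenic nuclear protein, rose by 1.47. Of 23 peroxisomal genes and thioesterases 15 fell and 1 rose (median -0.84), the exception being Ehhadh, the bifunctional enzyme of peroxisomal oxidation, at 1934 and 1889 under oil and 10701 and 9702 after PPT (2.40 ± 0.093). Of 19 mitochondrial genes 13 fell and 0 rose (median -0.35), while 8 fell without oil replicate 1 or PPT replicate 1 and 7 without PPT replicate 2. Lipid droplet and triglyceride genes were divided, 6 up and 8 down of 22 (median -0.06), with the droplet-fusion protein Cidec at 14.4 and 21.2 under oil and 519 and 461 after PPT, at least 9.08-fold higher, and the phosphatidate phosphatase Lpin1 down (-1.87). Without oil replicate 1 or PPT replicate 2, 5 members fell.

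Lipoprotein genes fell in 13 of 22 cases and rose in 3 (median -0.40), and 8 fell without oil replicate 1 or PPT replicate 2. Apoa4, an apolipoprotein of triglyceride-rich particles, stood out at 959 and 984 under oil and 8834 and 8347 after PPT (3.12 ± 0.10). The transfer protein Mttp rose (0.57), Apoa5 fell (-0.68), and Apob, the backbone of VLDL, was not called (-0.06). Among 24 genes of phosphatidylcholine and methyl groups 11 fell and 4 rose (median -0.04). Mfsd2a, a transporter of lysophosphatidylcholine, read 509 and 521 under oil and 2639 and 2779 after PPT (2.36 ± 0.11), against a fall in ERKO (-1.60), and the choline transporter Slc44a1 fell (-1.57).

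At the hepatocyte's surfaces, 10 of 18 bile and sterol transporters fell and 5 rose (median -0.68). Slco1a4, an uptake carrier of organic anions, read 3269 and 3196 under oil and 360.5 and 321 after PPT (-3.19 ± 0.093), and Slc22a7 read 259 and 249 under oil and 20.9 and 15.4 after PPT, at least 4.54-fold lower. Export pumps of the canalicular membrane that fell were Abcb4 for phosphatidylcholine (-1.42), Abcc2 for conjugates (-1.27), Abcg5 and Abcg8 for sterols (-1.27 and -1.16) and Abcb11 for bile salts (-0.81). Abcg2 (0.47) and Abcb1a (0.48) were export pumps that rose, and they kept their calls whichever wild-type array was left out. The carriers Slco1a1 (0.61) and Slco1b2 (0.35) also rose, but their calls were lost when some wild-type arrays were left out singly.

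Of 41 carbonic anhydrases and other solute carriers 24 fell and 8 rose (median -0.47). Car3, a carbonic anhydrase of liver, fat and muscle, read 10829 and 11239 under oil and 642 and 646 after PPT (-4.07 ± 0.11). Adipoq, which marks fat cells, was under the 40th percentile on all 4 arrays (29.8 and 26.0 under oil and 28.0 and 19.8 after PPT). The relatives Car1 (-2.69), Car8 (-2.005) and Car14 (-1.66) fell as well. The sulphate carrier Slc26a1 (-1.99) and the glutamine carrier Slc38a3 (-1.84) fell. The water channels Aqp4, at 50.5 and 55.1 under oil and 418 and 381 after PPT (2.59 ± 0.17), and Aqp8 (1.45) rose, as did the mitochondrial carrier Slc25a47 (1.43). Slc34a1, the kidney relative of Slc34a2, was not called (-0.04).

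Genes of glucose output fell in 9 of 16 cases and rose in 1 (median -0.37). G6pc, the last step of glucose release, read 3085 and 3117 under oil and 844 and 869.7 after PPT (-1.84 ± 0.078), and the glucose transporter Slc2a2 read 2198 and 2319 under oil and 641 and 696 after PPT (-1.73 ± 0.10). Pck1, an early step of gluconeogenesis, went up, 2901 and 2937 under oil and 5087 and 5031 after PPT (0.79 ± 0.10). In insulin signalling and glycolysis 4 of 16 rose and 5 fell (median -0.03): Igfbp1, an insulin-repressed binding protein of IGF-1, read 219.7 and 190.4 under oil and 1194 and 1159.7 after PPT (2.44 ± 0.13) and its relative Igfbp2 fell (-1.67). Without oil replicate 2, 2 genes of this group rose.

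Secreted plasma proteins mostly fell, while the ER machinery that exports them rose. Of 27 coagulation and fibrinolysis genes 17 fell and 2 rose (median -0.50), or 1 rose whichever wild-type array was left out. Plasminogen (Plg) read 6397 and 6697 under oil and 3107 and 3089 after PPT (-1.08 ± 0.086), and F5 (-1.24), F7 (-1.21), F8 (-1.03) and Hrg (-1.10) fell. F11, factor XI, went the other way, 555 and 499 under oil and 1716 and 1753 after PPT (1.69 ± 0.10), and the fibrinogen chains Fgb (0.04) and Fgg (0.02) were not called. Of 24 complement genes 15 fell and 4 rose (median -0.36). The lectin Mbl1 read 2624 and 2539 under oil and 1048 and 990.03 after PPT (-1.33 ± 0.093), with C2 (-1.30), C4b (-1.08) and C9 (-0.94) lower, while C8a (0.51) and C8b (0.84) of the lytic complex rose. Without oil replicate 1 or PPT replicate 1, 2 complement genes rose.

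Carriers of hormones were among the deepest falls of secreted proteins, where 16 of 24 genes fell and 2 rose (median -0.48), or 1 rose whichever wild-type array was left out. Serpina6, corticosteroid-binding globulin, read 4548 and 4648 under oil and 465 and 417 after PPT (-3.34 ± 0.094). Serpina7, thyroxine-binding globulin, read 2359 and 2322 under oil and 775 and 708 after PPT (-1.64 ± 0.10), and it rose in MOER (0.88). Dio1, which activates thyroxine in liver, read 1699 and 1606 under oil and 396 and 357 after PPT (-2.09 ± 0.13) and rose in both other genotypes (1.02 in ERKO and 0.64 in MOER). Transthyretin (Ttr), another thyroxine carrier, was not called (-0.34).

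Acute phase proteins did not move as a block. Of 28 tested genes 10 rose and 9 fell (median 0.13), against 20 that rose in MOER (median 0.82). Saa2, a serum amyloid A, read 3054 and 2629.7 under oil and 13482 and 11919 after PPT (2.15 ± 0.14), and the siderophore-binding protein Lcn2 (2.37) and Saa1 (1.95) rose. Metallothionein Mt1 read 3451 and 3611 under oil and 865 and 846 after PPT (-2.02 ± 0.092), whereas in MOER it rose (1.24), a difference with an adjusted p of 7.80e-08 in limma. Of 24 genes of IL-6 family signalling and chemokines 7 rose and 6 fell (median 0.10). Lifr, the receptor of leukaemia inhibitory factor, read 1774 and 1794 under oil and 11507 and 11361 after PPT (2.67 ± 0.083) and fell in MOER (-0.44), while Il6ra (-0.94) and the shared subunit Il6st (-0.89) fell in wild type. Socs3, a target of this pathway, was not called (-0.16).

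Interferon-induced genes fell in 18 of 30 cases and rose in 2 (median -0.44), against a median of 0.53 in MOER. Their change differed from that in MOER for 25 of the 30, against 23.9% of all genes. Among all 2499 genes that fell in wild type, the change was lower than in MOER for 1593. Ifit1 read 568 and 529 under oil and 180.1 and 178 after PPT (-1.53 ± 0.094), and Ifit3 (-1.01), Rtp4 (-0.75) and the transcription factor Stat2 (-0.79) fell. The count of falls was 11 without oil replicate 1 and 10 without PPT replicate 1, and 0 or 1 rose when a wild-type array was left out.

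In metal and selenium handling 15 of 33 genes fell and 5 rose (median -0.28). Hamp, hepcidin, the hormone that blocks iron export, read 4874 and 5493 under oil and 2412 and 2530.2 after PPT (-1.06 ± 0.096). In MOER Hamp rose (0.75). Its relative Hamp2 read 7789 and 8487 under oil and 643 and 641 after PPT (-3.63 ± 0.13) and also fell in MOER (-3.01) and ERKO (-1.68). The transferrin receptor Tfrc rose (1.29) while it fell in MOER (-2.32) and ERKO (-1.001). Id1, a target of BMP signalling, read 150.2 and 156 under oil and 661 and 658 after PPT (2.000 ± 0.12), the iron exporter Slc40a1 rose (0.75), and Tmprss6 fell (-1.36). Without either ERKO oil array 8 genes of this list rose.

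**Figure D3:**
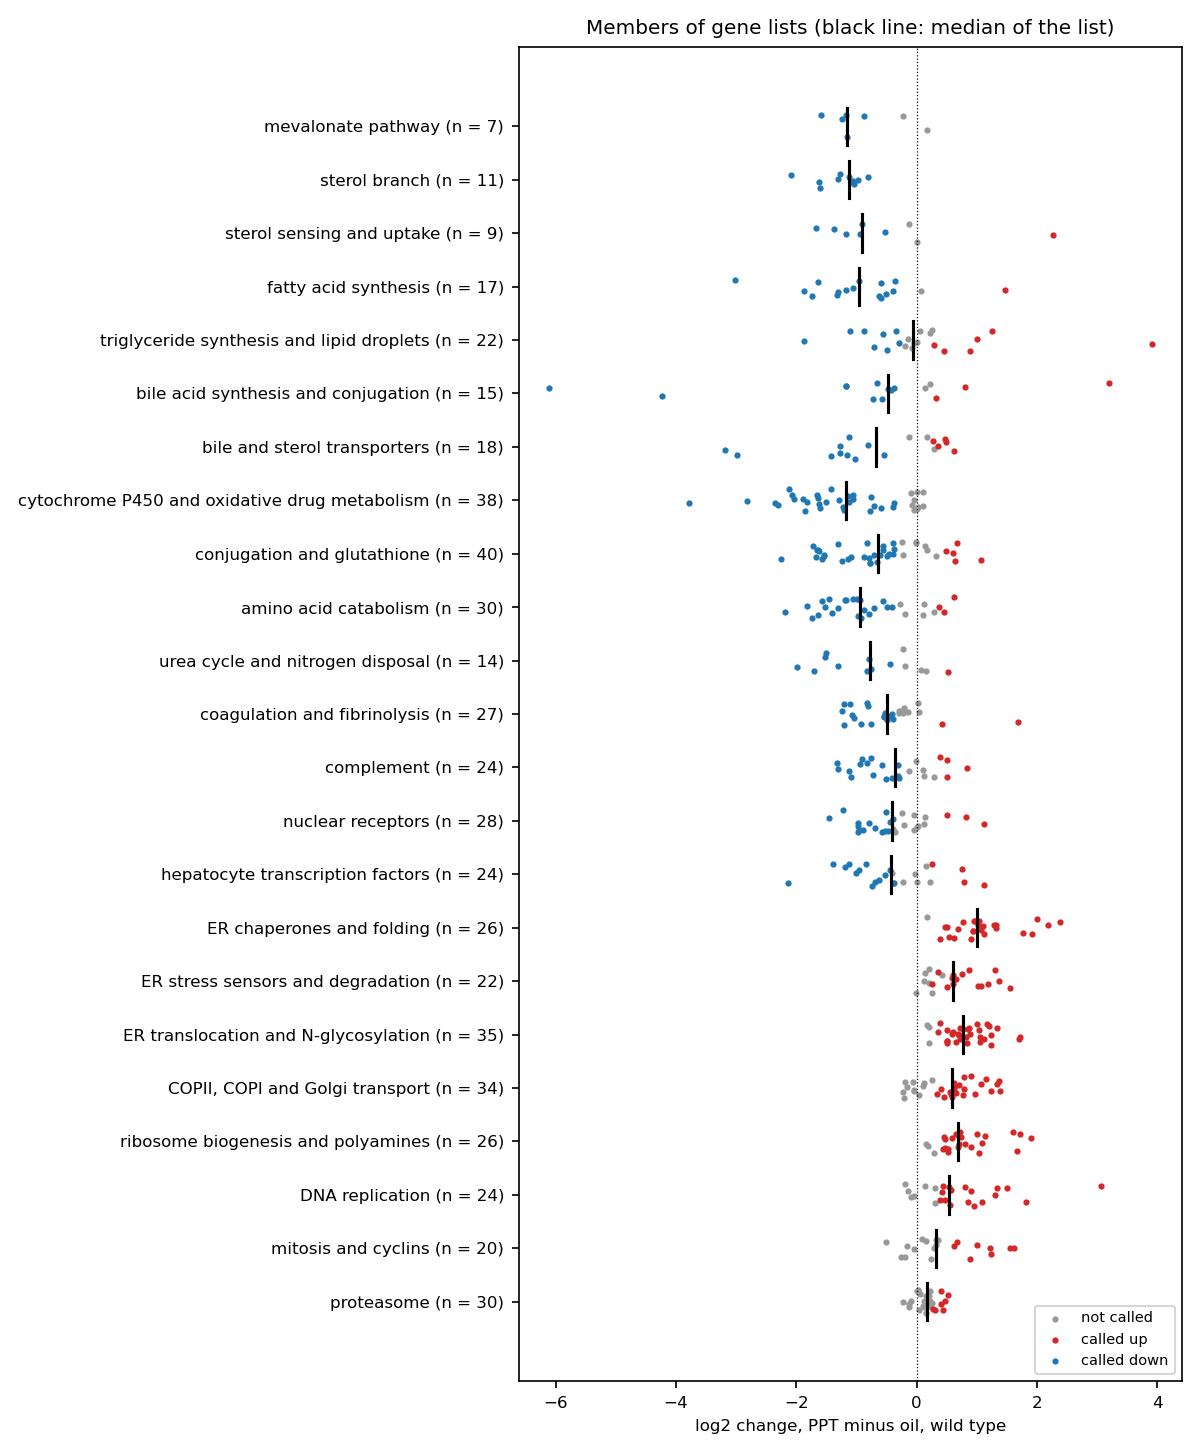
Log2 change in wild-type liver of each tested gene of 23 groups, 1 point a gene, red where called higher, blue where called lower and grey where not called; the black line is the group's median and the dotted line the median of all 13987 genes, 0.0048. ER chaperones lie almost wholly to the right, with a median of 1.00, and genes of oxidative drug metabolism mostly to the left, with a median of -1.17.

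Among the regulators of these pathways falls outnumbered rises. Of 28 nuclear receptors and partners 15 fell and 3 rose (median -0.41). Ppara, the fatty acid receptor (-0.89), Nr1i3, the drug sensor CAR (-0.98), the shared partner Rxra (-0.97) and the coactivator gene Ppargc1a, at 165 and 186 under oil and 52.7 and 53.8 after PPT and at least 3.13-fold lower, all fell, while Pparg rose (0.83). Hnf4a, which specifies hepatocytes, was not called (0.01 ± 0.088). Among 24 hepatocyte transcription factors 14 fell and 4 rose (median -0.42). Cebpa read 1041 and 1062 under oil and 376 and 409 after PPT (-1.39 ± 0.10), its relative Cebpb rose (0.79), and Onecut1 read 256 and 284 under oil and 55.8 and 42.5 after PPT, at least 4.83-fold lower, with Onecut2 higher (0.75).

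In growth hormone signalling 4 of 18 genes rose and 7 fell (median -0.14). Stat5a, a signal transducer of this hormone, read 139 and 135 under oil and 482 and 465 after PPT (1.68 ± 0.12), Socs2 rose (0.71), and Igf1, its main liver target, fell (-0.43). Of 27 genes known as female-biased in liver 16 fell and 6 rose (median -0.75; -0.58 in MOER and -0.87 in ERKO). Of 20 known as male-biased 6 rose and 7 fell (median -0.16; 0.58 in ERKO), and 4 fell without PPT replicate 2. A1bg, a female-biased gene of the immunoglobulin superfamily, read 1058 and 1026 under oil and 2712 and 2762 after PPT (1.38 ± 0.12) and fell in ERKO (-4.69) and MOER (-2.52).

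Steroid-converting enzymes fell in 12 of 22 cases and rose in 5 (median -0.34). Hsd17b6 read 6791 and 6947 under oil and 1053 and 1024 after PPT (-2.71 ± 0.089), and Hsd3b2 (-3.85) and Hsd3b3 (-2.03) fell. Cyp17a1, the 17-alpha-hydroxylase, read 1588 and 1593 under oil and 10535 and 9707 after PPT (2.66 ± 0.095), rose further in MOER (3.42) and fell in ERKO (-0.48). In retinoid metabolism 14 of 28 genes fell and 5 rose (median -0.35). Lrat, which esterifies retinol for storage in stellate cells, read 549 and 491 under oil and 85.2 and 103 after PPT (-2.28 ± 0.10), and Adh7, an alcohol dehydrogenase of retinol, read 172 and 161 under oil and 833 and 924 after PPT (2.29 ± 0.097). Rdh16 fell (-2.24) and Rdh10, which makes retinal in other tissues, rose (2.04).

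Of 25 immediate early and heat shock genes 11 rose and 3 fell (median 0.21). Atf3, a stress-induced transcription factor, read 35.05 and 38.1 under oil and 127 and 155 after PPT, at least 2.6-fold higher, and the cytosolic chaperones Hsph1 (1.37) and Hsp90aa1 (0.74) rose, while Fos (0.11) and Egr1 (0.19) were not called. Of 24 genes of serine and one-carbon metabolism and the amino acid stress response 7 rose and 5 fell (median 0.15), and 11 rose when the wild-type arrays were fitted alone. Asns, asparagine synthetase, read 33.2 and 33.3 under oil and 139.7 and 123 after PPT, at least 2.43-fold higher. Atf4 itself was not called (0.08), and Shmt1 (-0.93) and Shmt2 (-1.13), which make one-carbon units from serine, fell. The ATF4 composite element, TGATGNAA on either strand, lay in the windows of 7 of 21 of these genes (33.3%; 28.0% of 25 windows), against 2.92% of tested genes. Of the 7, Asns, Atf3, Chac1 and Trib3 rose, Vldlr fell, and Fgf21 and Nupr1 were not called. Trib3 lost its call without oil replicate 2. The stretch of Asns is printed as the best known of them.
Asns, chr6:7693200-7693257, minus strand, element in capitals: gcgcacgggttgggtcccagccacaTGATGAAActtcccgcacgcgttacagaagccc

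The full palindromic oestrogen response element, GGTCANNNTGACC, was in the windows of 0 of 332 genes that rose at least 2-fold and 0 of 395 that fell as far, and of 3 of 11084 tested genes (0.0271%). These windows reach only 250 bases upstream, and the search took no element with a mismatch.

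Whole liver holds several cell types, and in such bulk RNA fewer cells of a type and less RNA per cell cannot be told apart. Of 20 Kupffer cell and macrophage markers 9 rose and 2 fell (median 0.25), and their summed intensity was 16200 and 15800 under oil and 19900 and 19600 after PPT. Marco, a scavenger receptor of macrophages, read 134 and 136 under oil and 969 and 987 after PPT (2.72 ± 0.16). It also rose in MOER (2.22) but fell in ERKO (-0.98). The resident Kupffer cell markers Clec4f (-0.30) and Vsig4 (-0.10) moved little, the latter not called, and Clec4f lost its call whichever wild-type array was left out.

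Of 12 neutrophil and granule genes 7 rose and 0 fell (median 0.61), and their sum was 1370 and 1270 under oil and 8880 and 8710 after PPT. Prtn3, proteinase 3, read 66.7 and 54.7 under oil and 3634 and 3575 after PPT (5.57 ± 0.20), and most of that sum was Prtn3 and Lcn2. S100a8 (42.6 and 37.2 under oil and 140.2 and 161 after PPT) and S100a9 (76.8 and 55.8 under oil and 182 and 187 after PPT) rose to low levels, while the surface markers Ly6g (-0.27) and Cxcr2 (0.18) and the granule gene Ltf (-0.31) were not called. With only probe sets above the 60th percentile 4 of these genes rose. The part of neutrophil RNA in the rise of Prtn3 was not tested.

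Markers of sinusoidal endothelium fell in 9 of 20 cases and rose in 2 (median -0.20), or in 1 whichever wild-type array was left out, with a sum of 9410 and 9690 under oil and 6130 and 6000 after PPT. Clec4g, a lectin of these cells, read 4014 and 4240.3 under oil and 1597 and 1574 after PPT (-1.37 ± 0.091). Signals that these cells send to hepatocytes fell: Wnt2 read 147 and 127 under oil and 44.8 and 50.9 after PPT, at least 2.45-fold lower, with Rspo3 (-0.93) and Bmp2 (-1.15). The general endothelial markers Pecam1 (0.24) and Cdh5 (0.02) and the scavenger receptor Stab2 (0.14) were not called. Hepatocyte genes near the central vein, which Wnt signals maintain, fell in 11 of 16 cases and rose in 2 (median -0.82), or in 0 whichever wild-type array was left out, with a sum of 55700 and 56900 under oil and 33700 and 32600 after PPT. Their periportal counterparts fell in 6 of 13 cases and rose in 5 (median -0.25), or in 3 without oil replicate 2 or PPT replicate 2. The part of hepatocyte zones in the falls of single enzymes was not tested.

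Stellate cell and matrix genes fell in 8 of 18 cases and rose in 0 (median -0.24), the deepest being Lrat, Colec10 (-1.31) and Col14a1 (-1.15), while Dcn (-0.10) and Col1a1 (0.08) were not called. Of 8 MHC class II and dendritic cell genes 5 fell (median -0.64). Cd74, the invariant chain of class II, fell by 0.95 in wild type, 0.94 in ERKO and 0.87 in MOER. Markers of tissues that border the liver stayed low in the wild-type arrays: 16 skeletal muscle genes summed to 802 and 779 under oil and 957 and 909 after PPT, and 15 pancreatic acinar genes to 653 and 776, then 850.0 and 760.0. Those sums were 20500 and 19400 in ERKO PPT for muscle and 51400 and 41200 in MOER oil for acinar genes, and their part in the comparisons with those groups was not tested.

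In the mice with no or only membrane oestrogen receptor alpha, PPT called 2367 genes in ERKO (16.9%; 7.44% up and 9.48% down) and 688 in MOER (4.92%; 2.52% up and 2.4% down). The wild-type change differed from that in ERKO for 3309 genes (23.7%) and from that in MOER for 3346 (23.9%), and over all probe sets for 22.3% and 21.6%. These comparisons share the wild-type arrays. Of the 2132 genes that rose in wild type, 299 rose and 197 fell in ERKO, and 116 rose and 74 fell in MOER. Of the 2499 that fell, 637 fell and 123 rose in ERKO, and 177 fell and 136 rose in MOER.

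Of the 2132 rising and 2499 falling genes of wild type, 61 and 75 were called in the same direction in MOER and not called in ERKO. Over all genes 2.52% rose and 2.4% fell in MOER, whether or not they were called in ERKO. The clearest by wild-type p were Cyp8b1 (-0.98 in MOER), Prtn3 (2.02), Nrep, a neuronal regeneration protein (-2.41), Nsdhl (-0.38), Tlcd2 (-0.72), Ifi27l2b (0.56), Cd300e (1.08) and Hsd3b3 (-0.81). Nrep read 817 and 878 under oil and 83.7 and 94.4 after PPT in wild type (-3.04 ± 0.11). These 8 genes were picked by their wild-type p, so that their wild-type changes are larger follows from the choice.

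The groups that led the wild-type response had medians nearer 0 in the other genotypes. ER chaperones had a median of 0.12 in MOER and -0.00 in ERKO, ribosome biogenesis -0.05 and -0.19, and DNA replication 0.04 and 0.12. Genes of oxidative drug metabolism had medians of -0.27 and -0.52, with 12 called lower in MOER and 23 in ERKO. Of these 38 genes 25 and 22 differed in size of change from wild type. Among all 2499 genes that fell in wild type, the change was lower than in MOER for 1593 and than in ERKO for 1281. Amino acid catabolism had a median of 0.02 in MOER and -0.31 in ERKO. Lipid synthesis fell in MOER too. From acetoacetyl-CoA to farnesyl diphosphate the medians were -0.86 in MOER and -0.09 in ERKO, with 5 and 1 of 7 genes lower. From squalene to cholesterol they were -0.56 and -0.27, with 8 and 5 of 11 lower. For fatty acid synthesis both were -0.38, with 10 of 17 lower in each. Over all genes 2.4% fell in MOER and 9.48% in ERKO. Levels under oil differed between the genotypes as well: Sult2a3 read 166 and 180.3 in ERKO oil and 284 and 235 in MOER oil.

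**Figure D4:**
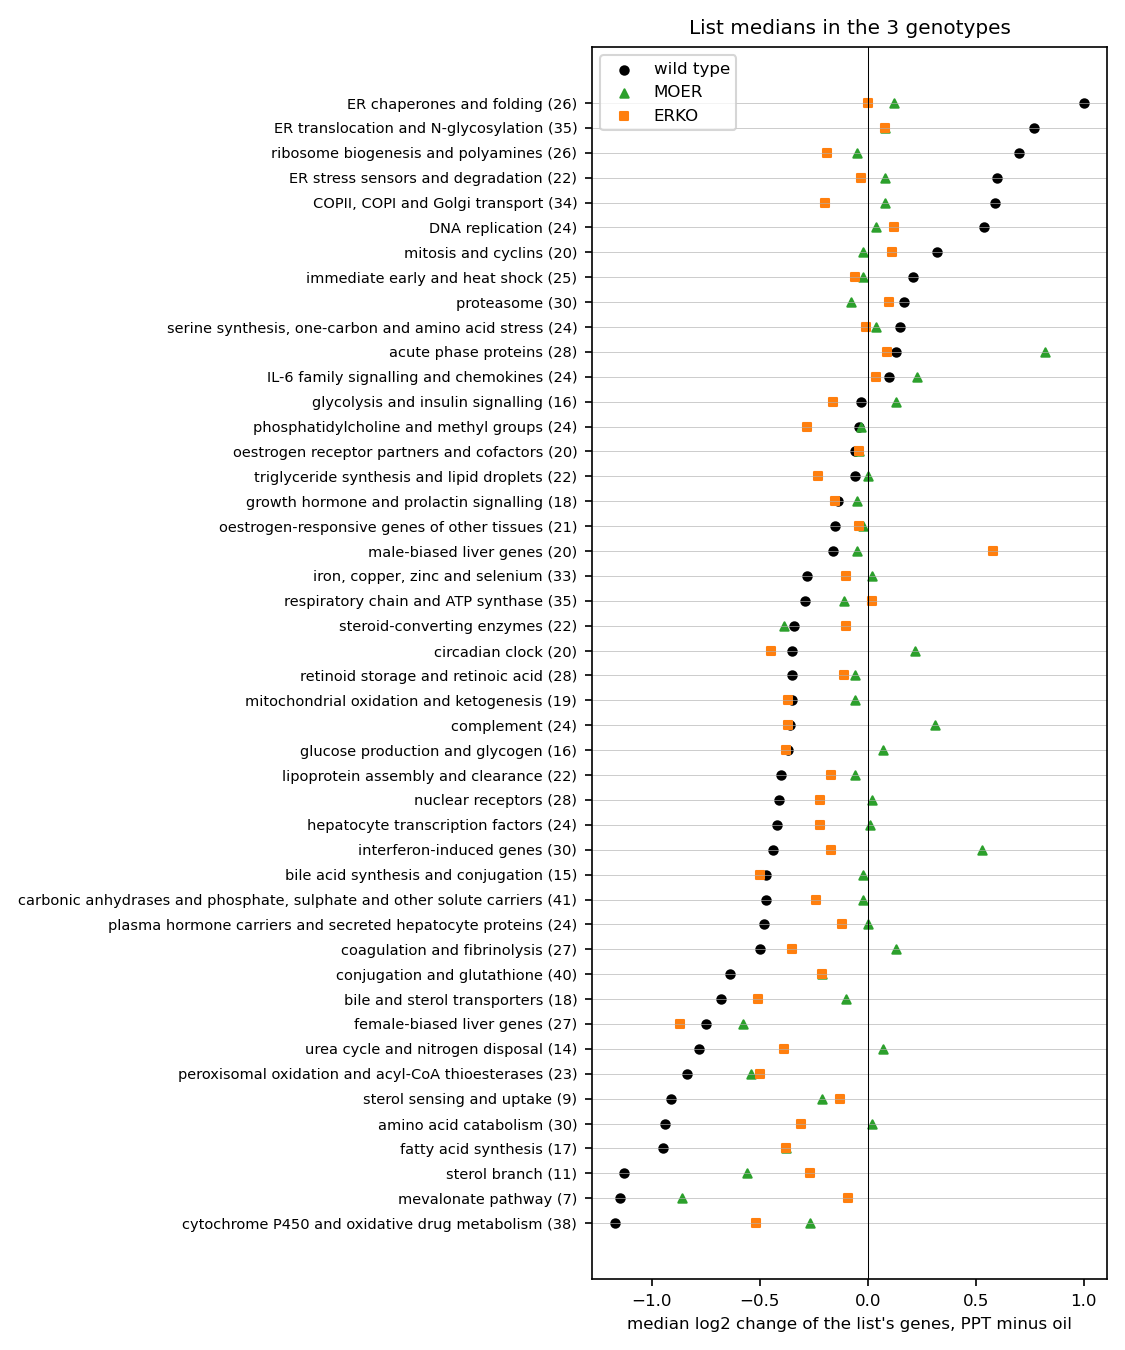
Median log2 change of each of 46 gene groups in wild type (black circles), MOER (green triangles) and ERKO (orange squares), 2 arrays a group and genotype. The groups are ordered by the wild-type median, from 1.00 for ER chaperones downwards; MOER and ERKO points lie nearer 0 for the groups at both ends.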

How the data were processed

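The deposited table gives 1 linear intensity for each of 28815 probe sets on 12 arrays, read from biotin-labelled total RNA of pooled mouse livers, per the labels' protocols. How the authors summarised and normalised the probes, and with which software, is not described by the labels or file headers, and the values were used as deposited. Per the labels, the authors called changes by a Cyber-T confidence limit together with at least a 2-fold change, and this rule was run as an alternative.

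Probe sets over the array's 40th percentile on 2 or more arrays were kept, 16 was added, and log2 values were fitted with limma 3.58.1 (lmFit, eBayes; R 4.3.3) on 6 group means. This left 6 residual and 10.47 moderated degrees of freedom and a median standard error of 0.121 for the wild-type change; the small number of arrays limits the precision. P-values were adjusted by Benjamini-Hochberg over 19119 probe sets, with calls at 0.05. The script was tested on simulated data. GEO's platform annotation gave 1 symbol to 21780 probe sets, several to 1605 and none to 5430, and 21689 were matched to RefSeq gene records (GRCm38.p6). In 3 of 707 genes with several tested probe sets (Cdk7, Etfbkmt and Heatr3) these were called in opposite directions. Promoter windows are RefSeq's, of GRCm38.p6.

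The gene lists were chosen with earlier results of these data known. Genes are named by rule: the 25 largest changes each way, of each list up to 8 called members with the smallest p, up to 4 that went the other way and up to 3 not called, the called ones with the 8 largest changes each way among the 100 brightest, the 8 clearest differences from ERKO and from MOER, the 8 clearest shared with MOER and not called in ERKO, the probe sets at the brightness limit, and Esr1. Hsp90b1, Calr, Canx, Dnajc3, Ero1b and Chac1 were named after their values were seen, for their promoter elements. The alternatives were the pseudocount, the filter, 2 rescalings, the wild-type arrays alone, a trended prior, the replicate number as a block, the methods' threshold, and leaving out each array.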

Additional observations from a re-analysis of the deposited data

Results flagged for a closer look

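The response of wild-type liver was set against that of ERKO and of MOER by an interaction term in limma, and the difference passed an adjusted p of 0.05 for 4266 probe sets against ERKO (22.3%) and for 4124 against MOER (21.6%). Both comparisons use the same wild-type arrays. Values below are the wild-type log2 change minus that of the other genotype. The genes were chosen by p or by opposite directions, not by the size of the difference. Slc34a2, Cyp7a1, Myo15b, Corin, Smpx, Serpinb3a, Scgb1a1, Cpb1, Rnase1, Ctrl, Adh6-ps1 and Serpina12 lay under the 40th percentile in at least 1 of the groups compared, so the sizes of their differences depend on the added 16 and have no order.

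Against ERKO, genes with a wild-type response and among the smallest p were Slc34a2 at 7.56, Cyp7a1 at -5.01, Myo15b, an unconventional myosin, at 4.84 and A1bg at 6.07. Genes that moved in opposite directions in wild type and ERKO were Raet1d at -3.50, Rnf125 at -3.59, Ehhadh at 3.44, Mfsd2a at 3.96, Gbp11 at -3.33, Tgm2 at 3.67 and Cyp17a1 at 3.14. Smpx at -6.91, Tnnc2 at -6.25, Serpinb3a at -7.59 and Scgb1a1 at -5.51 rose in ERKO after PPT and were not called in wild type. Smpx and Tnnc2 are genes of striated muscle, and the 16 skeletal muscle markers summed to 20500 and 19400 in ERKO PPT against 957 and 909 in wild-type PPT. The part of muscle RNA in these differences was not tested.

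Against MOER, genes among the smallest p were Slc34a2 at 7.78, Cyp7a1 at -4.91, Corin, a protease of natriuretic peptides, at 4.95 and Myo15b at 4.53. Opposite directions in wild type and MOER were seen for Adh6-ps1 at -5.49, Raet1d at -3.72, Tfrc at 3.61, Serpina12 at 4.25, Lifr at 3.11, Mt1 at -3.27, Ehhadh at 3.18 and St6gal1 at -3.06. Cpb1 at 8.61, Rnase1 at 5.76 and Ctrl at 6.22 are genes of pancreatic acinar cells that fell in MOER and were not called in wild type. The 15 acinar markers summed to 51400 and 41200 in MOER oil, and the part of acinar RNA in these 3 differences was not tested.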

How the results depend on the processing

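In no setting did a named gene's called value change sign; other genes were not followed. With the methods' Cyber-T threshold 494 probe sets rose and 631 fell in wild type, and limma's calls held to at least 2-fold numbered 498 and 630. Leaving out 1 array at a time gave 1876 to 3824 higher and 2057 to 3913 lower in wild type, the lowest being 1876 without wild-type PPT replicate 1 and 2057 without wild-type PPT replicate 2. For wild type minus ERKO the ranges were 1356 to 3062 higher and 1474 to 4253 lower: 3062 higher without ERKO oil replicate 2, 4253 lower without ERKO oil replicate 1, 1526 lower without wild-type oil replicate 2 and 1474 lower without wild-type PPT replicate 2. For wild type minus MOER they were 1349 to 2781 and 1521 to 2826. Deviations of same-numbered arrays from their group means correlated between -0.147 and 0.377 over 15 pairs of groups (0.069 for wild-type oil and PPT, 0.276 to 0.377 among the 3 oil groups), over 0.1 in 5 of the 15, so the numbers were not taken as pairs. With the replicate number as a block 2869 probe sets rose and 3158 fell in wild type, 2001 and 2368 differed from ERKO, and 2004 and 2118 from MOER, against 2827 and 3094, 1975 and 2291, and 2007 and 2117 without it. Fitting the wild-type arrays alone called 3905 up and 4018 down. Of 478 named genes called in wild type, 431 were called under every alternative but the methods' threshold. The share of calls that were rises lay between 43.9% and 49.4%. Probe sets near the 40th percentile carry little signal over background, and 9696 probe sets below the limit were not tested.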

Other observations

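Of 35 genes of the respiratory chain and ATP synthase 15 fell and 0 rose (median -0.29); 23 fell after quantile normalisation and 9 without wild-type oil replicate 1, oil replicate 2 or PPT replicate 1. Of 20 clock genes 9 fell and 4 rose (median -0.35). Bhlhe40, a transcriptional repressor, read 501 and 487 under oil and 76.0 and 49.0 after PPT (-2.72 ± 0.16), Dbp fell (-1.04) and Nfil3 rose (1.26). Without wild-type oil replicate 1, 2 clock genes rose.

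Genes known to respond to oestrogen in other tissues were divided, with 6 of 21 higher and 8 lower (median -0.15), or 5 lower without wild-type oil replicate 2. Myc and Ccnd1 (1.01) rose, while Igfbp4 (-1.02) and Ctsd (-0.63) fell. Of 20 receptor partners and cofactors 3 rose and 5 fell (median -0.06), and 1 to 3 fell when single wild-type arrays were left out.

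Of 12 epithelial keratins and squamous genes 2 rose and 2 fell (median 0.20). Besides Krt4, Krt18, a keratin of hepatocytes, rose (0.62), and Dsp (-0.80) and Krt8 (-0.35) fell, but Krt8 lost its call whichever wild-type array was left out. Of 11 adipocyte genes 3 rose and 3 fell (median -0.03), and the defining marker Adipoq read 29.8 and 26.0 under oil and 28.0 and 19.8 after PPT. Among 12 lymphocyte genes 3 rose and 1 fell (median 0.16), and of 8 bile duct genes 1 rose and 1 fell (median 0.04), and 0 rose whichever wild-type array was left out.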
